A study of Drosophila melanogaster with 6 samples.

Results

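The genes described here are those of the Activin branch of TGF-beta signalling in the Drosophila leg disc, together with myoglianin. They are the rows of the deposited expression table whose symbol is babo, Smox, daw, myo, Actbeta or mav, and all 6 were found among its 17490 genes. The set was drawn up by pathway membership and not by measured values, although earlier results of these data were known when it was chosen. Their mRNA was measured in 3 replicates of GFP+ myoblasts, sorted by flow cytometry out of leg discs at 0 h after pupae formation (APF), and in 3 replicates of the input, which is all cells of the dissociated leg disc. Both groups carried the same genotype, R32D05-lexA>lexAopGFP, in which a lexA transgene under the R32D05 enhancer drives GFP in leg disc myoblasts, and both went through the same enzymatic dissociation with collagenase and papain. The input includes the myoblasts, so each comparison sets sorted myoblasts against a whole disc that holds them too. The sources do not say how many discs or animals went into a replicate, and the p-values below measure only the spread between these libraries.

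TGF-beta ligands are secreted dimers that bring together type II and type I serine/threonine kinase receptors on the receiving cell. The type I receptor then phosphorylates a Smad protein, which joins a co-Smad and enters the nucleus to regulate transcription. In Drosophila the Activin branch runs through the type I receptor Baboon (babo) and the Smad Smox, whereas the BMP branch runs through Thickveins, Saxophone and Mad. The Activin-type ligands are Dawdle (daw), Activin-beta (Actbeta), Myoglianin (myo), which is the fly relative of vertebrate myostatin, and Maverick (mav), a more divergent member of the family whose receptor is less well established. The pathway is known for growth of imaginal discs and larval muscle and for remodelling of neurons at metamorphosis.

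Values are RPKM, a read count divided by the length of the gene and by a scaled read total, and they can be compared between genes because they are corrected for gene length. Read counts could be recovered from them with the summed exon length of each gene, and all 36 values of the 6 genes came out as whole reads. Recovered reads totalled 60011335 to 77704084 per myoblast library and 45603725 to 60920335 per input library. Groups were compared with limma on log2(RPKM + 1) over 7533 genes, those that reached 1 RPKM in 3 or more libraries. A gene was called where the p-value adjusted by Benjamini-Hochberg was under 0.05 and the change exceeded 1.5-fold. Of these genes, 14.8% were called lower in myoblasts and 5.52% higher. Calls in the higher direction made up 27.1% of all calls on the deposited values, 50.4% after quantile normalization and 16.3% with libraries set to equal RPKM sums.

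The sort was checked against marker lists. All 7 myoblast markers (ct, Him, htl, Mef2, twi, vg and zfh1) were called higher in myoblasts, where their summed level was 483 to 591 RPKM, against 80.1 to 111.5 RPKM in the input. Of the 8 matched markers of the disc epithelium, 7 were called lower and shg was not called. Of those called, Dll, dac, al, B-H1, crb and grh reached 1 RPKM in at most 1 myoblast library. They entered the test through the inputs and could only have come out lower, whereas ed and shg could have gone either way. The tendon precursor markers summed to 1.35 to 1.48 RPKM in myoblasts and to 68.9 to 77.3 RPKM in the input. The neuron markers summed to 3.08 to 4.57 RPKM in myoblasts, and to 28.2, 122.9 and 114 RPKM in input replicates 1, 2 and 3. Input replicate 1 thus had much lower neuron markers than the other inputs, but it differed from them more widely. Over all genes its RPKM summed to 963726, against 481720 and 589908 in input replicates 2 and 3. On log2(RPKM + 1) it correlated with these at 0.875 and 0.915, against 0.954 between them. Its epithelial marker sum was also the lowest, at 230.7 RPKM. Fat body markers were almost confined to input replicate 1 (13.6 RPKM, against at most 0.479 RPKM in the other inputs), and salivary gland markers to input replicate 3 (109.7 RPKM, against at most 0.119 RPKM in the other inputs). Among glial markers, repo and gcm were called lower in myoblasts, with gcm listed at 0 in all 3 myoblast libraries, whereas wrapper was called higher. Both repo and gcm were under 1 RPKM in every myoblast library, so they too could only have come out lower.

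Both members that differed were ligands, and both were lower in myoblasts than in the whole disc. Actbeta was nearly undetected in the sorted cells, at 0.927% of its mean level in the disc, and mav was present there at 35.8%. That makes 2 of 6 members called lower (33.3%, against 14.8% of all genes tested) and 0 called higher (against 5.52%). Actbeta entered the test only through the inputs and could only have come out lower, which limits the share called lower among the members. For myo, daw, babo and Smox the groups did not differ past the threshold. In bulk samples of this kind, fewer cells of a type and less RNA per cell cannot be told apart.

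**Figure D1:**
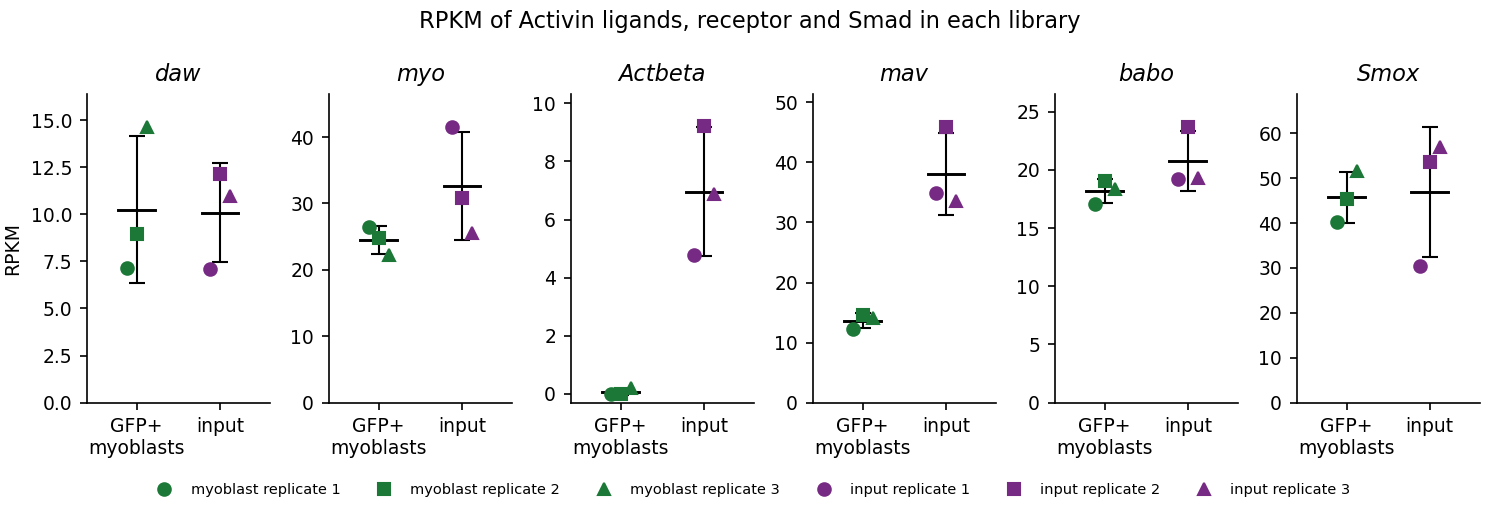
RPKM of the 6 genes in each library (linear axes, scaled to each gene), with GFP+ myoblasts left of the input. Points are libraries, horizontal lines are means and error bars are SD (n = 3 per group). The groups are well apart for Actbeta and mav, lie side by side without overlap for babo, and overlap for daw, myo and Smox.

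Activin-beta is made largely by neurons and neuroendocrine cells, and in the larva it promotes muscle growth. Its gene, Actbeta (FBgn0024913), lies on the minus strand of chromosome 4, from 1077331 to 1084796 (dm6 coordinates), with a single annotated transcript. It had 0, 0 and 0.194 RPKM in myoblast replicates 1, 2 and 3. In input replicates 1, 2 and 3 it had 4.78, 9.23 and 6.87 RPKM. Every myoblast library lay far below every input library. The value above 0 in myoblast replicate 3 rests on 46 reads, whereas the inputs had 728, 2048 and 1709 reads. A count of 0 allows up to 3 reads, or 0.00971 and 0.00969 RPKM in myoblast replicates 1 and 2. Reads without molecular identifiers can be copies of 1 molecule, so this limit covers counting error only.

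The mean of Actbeta in myoblasts was 0.0645 ± 0.112 RPKM (SD, n = 3), or 0.927% of the input mean of 6.96 ± 2.23 RPKM (SD, n = 3). The log2 fold change on log2(RPKM + 1) was -2.87 (standard error 0.318, 95% interval -3.60 to -2.14, adjusted p = 0.00045 in limma), a scale that understates the change of a gene this low. An exact two-sided permutation test gave p = 0.1, which is the smallest value that 3 libraries against 3 allow. Because its myoblast values are under 1 RPKM, Actbeta entered the test only through the inputs, where it is high, and so could only have come out lower. The gene was called lower in all 15 alternatives in which it was tested, with an adjusted p of at most 0.0447. The lowest of the inputs, replicate 1, was also the one with the fewest neuronal transcripts, at 28.2 RPKM over the marker list. In myoblasts the neuron markers nSyb, brp, fne and Syt1 stood at 0.108% to 4.67% of their input level, and elav at 18.3%, with none of the 5 at 0 in all 3 libraries. The summed level of the disc epithelium markers was likewise lowest in input replicate 1, at 230.7 RPKM. It was 404.8 and 305.1 RPKM in input replicates 2 and 3. Single markers differed, with Dll lowest in input replicate 3 (26.6 RPKM) and B-H1 highest in input replicate 1 (5.49 RPKM). The tendon precursor markers, also depleted in myoblasts, summed to 77.3, 74.0 and 68.9 RPKM in input replicates 1, 2 and 3. In myoblasts Dll, al, grh and dac stood at 0.847% to 1.71% of their input level, and B-H1 at 0. The other epithelial markers were less depleted, with crb at 4.01% and ed at 28.5%, or higher, with shg at 149%. The part of neurons, of epithelium or of tendon precursors in the Actbeta difference was not tested. Without input replicate 1 the log2 fold change was -3.08.

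Maverick is known from the neuromuscular junction, where the protein is released by glia and acts on the muscle. Its gene, mav (FBgn0039914), lies on the minus strand of chromosome 4, from 623219 to 626031, with a single annotated transcript. In myoblast replicates 1, 2 and 3 it had 12.2, 14.6 and 14.2 RPKM. In input replicates 1, 2 and 3 it had 34.9, 46.0 and 33.6 RPKM. Every input library lay well above every myoblast library. The means were 13.7 ± 1.27 RPKM in myoblasts and 38.1 ± 6.81 RPKM in the input (SD, n = 3 each). The log2 fold change was -1.41 (standard error 0.207, 95% interval -1.89 to -0.93, adjusted p = 0.00203 in limma), or a level 0.377 times that of the input with an interval of 0.271 to 0.526. The exact two-sided permutation test gave the smallest possible p, 0.1. Under all 16 alternatives mav was called lower, with an adjusted p of at most 0.0354. Without input replicate 1, which held fat body RNA, the log2 fold change was -1.46, and without input replicate 3, which held salivary gland RNA, it was -1.49.

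Relative to the input, mav was less depleted than most epithelial markers. Dll, dac, al, grh and crb, transcription factors and a polarity protein of the disc epithelium, retained between 0.847% and 4.01% of their input level in the sorted cells, whereas mav retained 35.8%. The epithelial adhesion gene ed retained 28.5%, and shg, which encodes E-cadherin, had 149% of its input level. The myoblast markers stood at 297% to 622% of the input. On this measure mav stood above most epithelial and below all myoblast markers, and babo (87.5%), Smox (97.3%) and daw (102%) lay near equality.

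**Figure D2:**
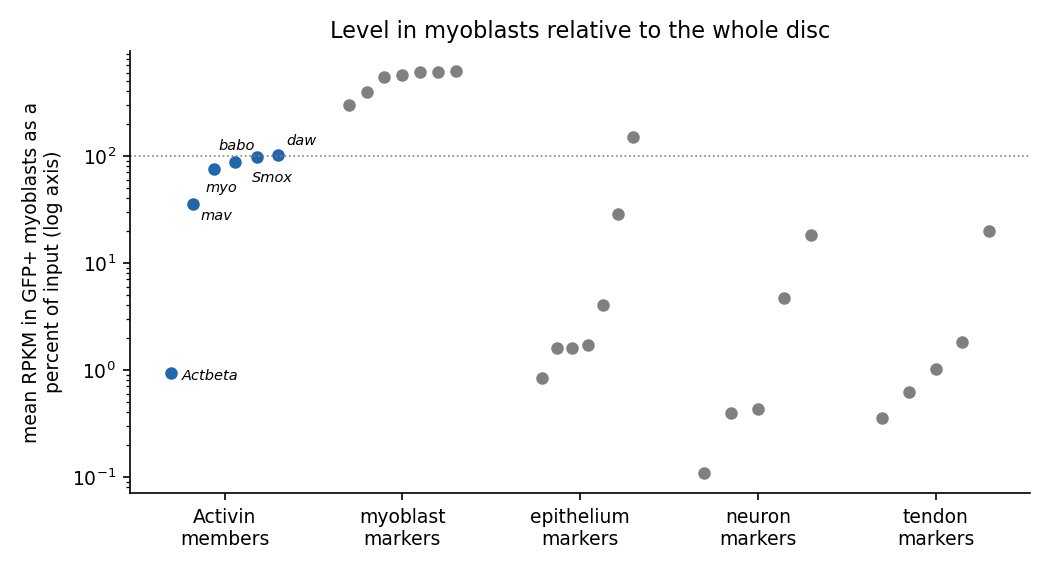
Mean RPKM in GFP+ myoblasts as a percent of mean RPKM in the input (log axis), with a point for each gene, for the 6 Activin-branch genes (blue, named) and for the marker lists of myoblasts, disc epithelium, neurons and tendon precursors (grey). Actbeta lies at 0.927%, in the range of markers of neurons, tendon precursors and disc epithelium (Dll at 0.847%), mav at 35.8%, and the other members at 74.8% to 102%. B-H1, an epithelial marker listed at 0 in all myoblast libraries, cannot be drawn on a log axis.

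Myoglianin is expressed in muscle and in glia, and acts on neuronal remodelling and on the neuromuscular synapse. Its gene, myo (FBgn0026199), lies on the minus strand of chromosome 4, from 690686 to 696055, with 3 annotated transcripts. It had 26.4, 24.7 and 22.2 RPKM in myoblast replicates 1, 2 and 3, against 41.6, 30.9 and 25.5 RPKM in input replicates 1, 2 and 3. The groups overlapped slightly, since input replicate 3 lay below myoblast replicate 1. Means were 24.4 ± 2.13 RPKM in myoblasts and 32.7 ± 8.17 RPKM in the input (SD, n = 3 each). The log2 fold change of -0.38 did not pass the threshold (95% interval -0.90 to 0.14, adjusted p = 0.311 in limma; exact two-sided permutation p = 0.2). The interval covers levels from 0.536 to 1.10 times that of the input. The input value was highest in replicate 1, and without that library the log2 fold change was -0.20, against -0.54 without input replicate 3. myo was therefore clearly expressed in myoblasts, as the Activin-type ligand with the highest RPKM there. Its level there was not called different from that in the whole disc.

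Dawdle is a ligand known for motor axon guidance and for the control of sugar metabolism. Its gene, daw (FBgn0031461), lies on the plus strand of chromosome 2L, from 2805261 to 2812376, with 3 annotated transcripts. It had 7.15, 8.95 and 14.7 RPKM in myoblast replicates 1, 2 and 3, against 7.11, 12.1 and 11.0 RPKM in input replicates 1, 2 and 3. The groups overlapped, with input replicate 1 just below the lowest and myoblast replicate 3 above all inputs. Means were 10.3 ± 3.92 RPKM in myoblasts and 10.1 ± 2.64 RPKM in the input (SD, n = 3 each), and the log2 fold change was 0.00 to 2 decimals (95% interval -0.75 to 0.74, adjusted p = 0.998 in limma). Changes of up to 1.67-fold in the higher and to 0.595 times in the lower direction lie within this interval. A difference of up to that size is therefore not excluded. Of the members that were well expressed in myoblasts, daw was the most variable there, with a coefficient of variation of 38.2%, against 5.71% to 12.5% for babo, mav, myo and Smox. Its sign depended on the library set, from -0.27 without myoblast replicate 3, the library with its highest myoblast value, to 0.20 without myoblast replicate 1.

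The genes that receive the signal, babo and Smox, were not called in either direction. For babo (FBgn0011300, plus strand of chromosome 2R, 8952339 to 8962796), RPKM was 17.0, 19.1 and 18.4 in myoblast replicates 1, 2 and 3, against 19.2, 23.7 and 19.3 in input replicates 1, 2 and 3. Every myoblast library lay below every input library, but the nearest of them, myoblast replicate 2 and input replicate 1, were almost level. Means were 18.2 ± 1.04 RPKM in myoblasts and 20.7 ± 2.58 RPKM in the input (SD, n = 3 each). The log2 fold change was -0.18, which missed the threshold (95% interval -0.63 to 0.27, adjusted p = 0.610 in limma; exact two-sided permutation p = 0.1). Over all 7533 genes tested, 37.8% had groups that did not overlap, and 3 of the 6 members did (Actbeta, mav and babo). The babo locus has 3 annotated transcripts, and its receptor isoforms are known to differ in the part that binds ligand. The table gives 1 value for the gene, so isoform use was not measured.

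Smox, the Smad phosphorylated by Baboon, had the highest mean RPKM of the 6 genes in both groups, although in input replicate 1 myo and mav were higher. For Smox (FBgn0025800, minus strand of chromosome X, 8137041 to 8142279, with 2 annotated transcripts), RPKM was 40.2, 45.4 and 51.6 in myoblast replicates 1, 2 and 3, against 30.4, 53.6 and 57.0 in input replicates 1, 2 and 3. The inputs lay on both sides of the myoblasts, with replicate 1 below all of them. Means were 45.7 ± 5.73 RPKM in myoblasts and 47.0 ± 14.5 RPKM in the input (SD, n = 3 each). The log2 fold change was 0.01 (95% interval -0.61 to 0.62, adjusted p = 0.994 in limma; exact two-sided permutation p = 0.9). Without input replicate 1 it was -0.28, with an adjusted p of 0.194. In the annotation 6 exonic bases of Smox overlap CG2120 on the opposite strand, whereas exons of the other 5 genes overlap no other gene.

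**Figure D3:**
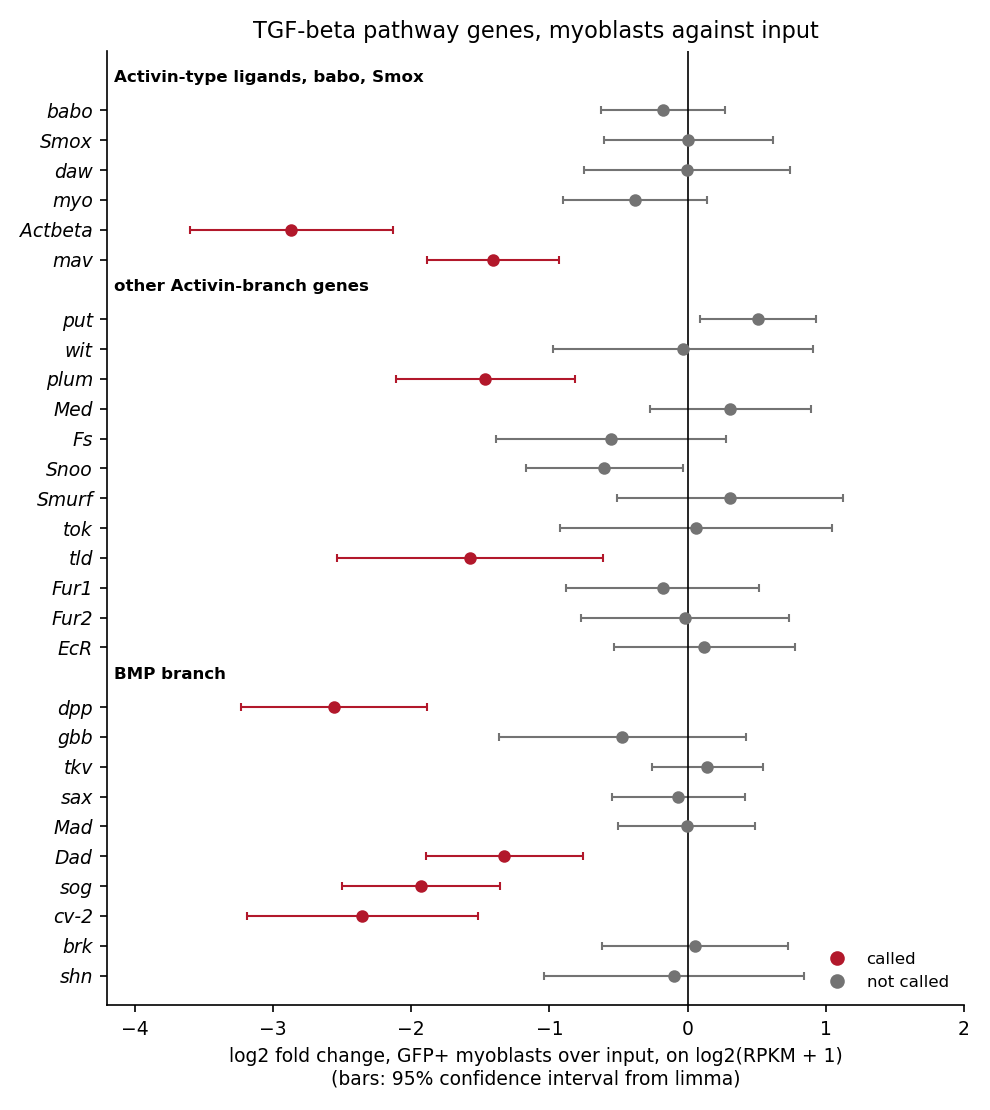
Log2 fold change of each tested gene, GFP+ myoblasts over input, on the log2(RPKM + 1) scale, with 95% confidence intervals from limma, for the 6 members and for the lists of other Activin-branch and BMP-branch genes. Red points were called, and all of them lie below 0. The intervals of babo, wit, tkv, Smox and Mad include 0, whereas put lies at 0.51 without being called and plum, an accessory receptor, at -1.46.

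Levels were also ordered within each group. In myoblasts the order was Smox, myo, babo, mav, daw and Actbeta, by mean RPKM. The ranges of neighbours were apart except for mav (12.2 to 14.6 RPKM) and daw (7.15 to 14.7 RPKM), which overlapped. In the input the order was Smox, mav, myo, babo, daw and Actbeta. There the ranges of Smox and mav, of mav and myo and of daw and Actbeta overlapped, so that their order is not set beyond the spread of the libraries. Among all 17490 genes ranked by mean RPKM, mav was 3909th in myoblasts and 1803rd in the input, Actbeta 9048th in myoblasts and 5788th in the input, and myo 2631st in myoblasts and 2075th in the input.

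The mix of ligand transcripts was described within each library. The summed RPKM of the 4 ligand genes was 45.8, 48.3 and 51.2 in myoblast replicates 1, 2 and 3, against 88.3, 98.2 and 77.0 in input replicates 1, 2 and 3. myo made up 57.7%, 51.2% and 43.3% of this sum in the myoblast libraries, against 47.1%, 31.5% and 33.2% in the inputs. The ranges of its share overlapped because of input replicate 1. mav made up 26.7% to 30.3% of the sum in myoblasts and 39.5% to 46.8% in the input. The ratio of myo to mav within a library does not depend on scaling between libraries. It was 2.16, 1.69 and 1.57 in myoblast replicates 1, 2 and 3, against 1.19, 0.672 and 0.760 in input replicates 1, 2 and 3, with no overlap. myo was thus the leading ligand of the branch in every myoblast library, whereas mav led in input replicates 2 and 3. These shares are sums over the members and were not tested.

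**Figure D4:**
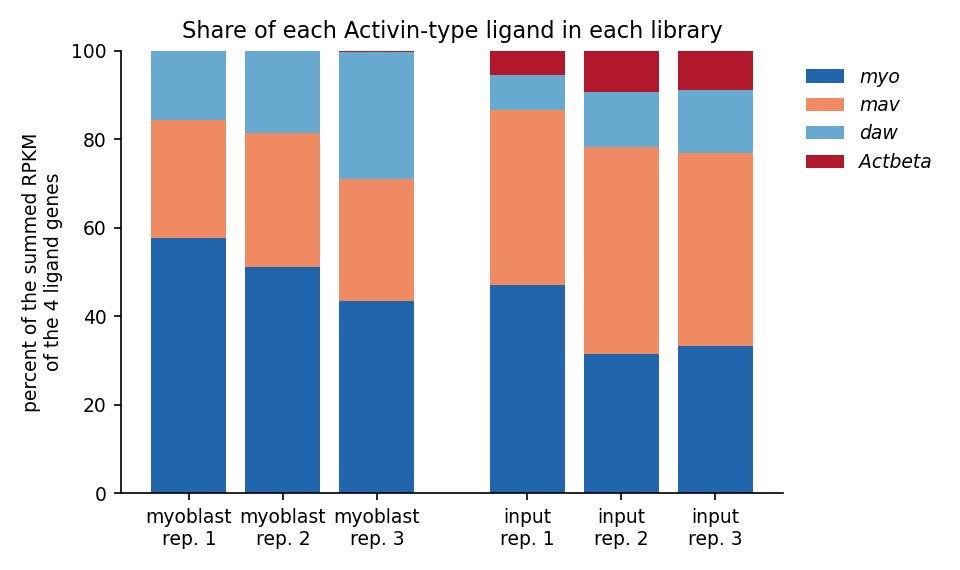
Share of myo, mav, daw and Actbeta in the summed RPKM of the 4 ligand genes, in percent, for each library (stacked bars from 0 to 100, myoblasts left of inputs). myo takes 43.3% to 57.7% in myoblasts and 31.5% to 47.1% in the input, and Actbeta takes at most 0.378% in myoblasts and 5.42% to 9.40% in the input.

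Other genes of the branch were taken from a list of 13, of which 12 reached the level for testing. Of these, 2 were called lower (16.7%, against 14.8% of all genes tested), 0 were called higher (against 5.52%), and 10 were not called. The median log2 fold change was -0.03, against 0.01 for all genes tested. The called genes were plum and tld. plum encodes an immunoglobulin superfamily protein of the cell surface that acts with Myoglianin in the pruning of mushroom body axons. It had 2.99, 3.91 and 2.70 RPKM in myoblast replicates 1, 2 and 3, against 7.78, 11.8 and 12.5 RPKM in input replicates 1, 2 and 3. The groups were apart, and the log2 fold change was -1.46 (adjusted p = 0.00739). With libraries set to equal sums it was -1.45 and no longer called (adjusted p = 0.0839). tld, a protease of the Tolloid family, had 0.258, 0.162 and 0.446 RPKM in myoblast replicates 1, 2 and 3, against 1.16, 5.03 and 3.31 RPKM in input replicates 1, 2 and 3 (log2 fold change -1.58, adjusted p = 0.0313). Like Actbeta, it entered the test only through the inputs. It was not called when any myoblast library or input replicate 2 or 3 was left out, with an adjusted p of 0.0644 to 0.124. The call was also lost without a filter on low values (adjusted p = 0.0560), with equal sums (0.0840), with quantile normalization (0.507) and with voom (0.0834).

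The type II receptors, which pair with Baboon, were both expressed in myoblasts. put, which also serves the BMP branch, had 28.9, 30.95 and 34.2 RPKM in myoblast replicates 1, 2 and 3, against 20.8, 23.6 and 20.9 RPKM in input replicates 1, 2 and 3. Its groups did not overlap, yet the log2 fold change was 0.51, which missed the threshold (95% interval 0.09 to 0.93, adjusted p = 0.0952). wit, known from the neuromuscular junction, had 8.34 to 9.85 RPKM in myoblasts and 4.34 to 15.3 RPKM in the input (log2 fold change -0.03, adjusted p = 0.968). The ratio of babo to put was 0.537 to 0.616 in the myoblast libraries and 0.923 to 1.006 in the inputs. The co-Smad Med had 22.8 to 30.1 RPKM in myoblasts and 14.7 to 25.2 RPKM in the input and was not called (adjusted p = 0.476).

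Transcripts of genes whose proteins process or bind the ligands were also measured. tok, a Tolloid-related protease that cleaves the Dawdle precursor, had 13.0 to 25.8 RPKM in myoblasts and 9.18 to 29.8 RPKM in the input, a spread in both groups that left the comparison wide (log2 fold change 0.06, 95% interval -0.92 to 1.05). The furin-type convertases Fur1 and Fur2 averaged 5.80 and 15.1 RPKM in myoblasts, against 6.92 and 16.2 RPKM in the input, and neither was called. Fs, a follistatin that binds Activins, had at most 1.38 RPKM in myoblasts and at most 3.12 RPKM in the input. fuss, a gene of the Ski/Sno family, was below the level for testing. EcR, which depends on Baboon in mushroom body neurons, averaged 9.17 ± 0.701 RPKM in myoblasts and 8.65 ± 3.24 RPKM in the input (SD, n = 3 each; adjusted p = 0.829).

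The BMP branch served for comparison. Of its 12 listed genes 10 were tested, 4 were called lower (dpp, Dad, sog and cv-2; 40.0%, against 14.8% of all genes tested) and 0 higher (against 5.52%). The median log2 fold change was -0.28, against 0.01 for all genes tested. Like Actbeta in the Activin branch, the ligand dpp was nearly missing from myoblasts, whereas the receptors babo and tkv were not. The ligands myo, mav, daw and gbb were present in myoblasts, and scw was listed at 0 in all 3 myoblast libraries. dpp had 0.196, 0.0523 and 0.0800 RPKM in myoblast replicates 1, 2 and 3, against 4.33, 6.73 and 5.75 RPKM in input replicates 1, 2 and 3. It too entered the test only through the inputs, as Actbeta did. cv-2 had 0.406, 1.02 and 0 RPKM in myoblast replicates 1, 2 and 3, and likewise passed the filter through the inputs. Both dpp and cv-2 could therefore only have come out lower, which limits the share called lower in this list. gbb, the other widely expressed BMP ligand, averaged 68.2 ± 8.99 RPKM in myoblasts and 106 ± 65.6 RPKM in the input (SD, n = 3 each) and was not called (adjusted p = 0.479). Its input values were 180.7, 56.9 and 81.4 RPKM in replicates 1, 2 and 3. Without input replicate 1 its log2 fold change was -0.006. The BMP type I receptor tkv had 80.7 to 99.5 RPKM in myoblasts and 78.7 to 89.0 RPKM in the input, so that babo stood at 0.189 to 0.211 times tkv in myoblasts and at 0.234 to 0.266 times tkv in the input. The 2 receptor-regulated Smads stood the other way round, since Smox exceeded Mad 1.80-fold to 2.03-fold in myoblasts and 1.54-fold to 2.36-fold in the input. Dad, an inhibitory Smad that BMP signalling is known to induce, had 7.74 to 9.82 RPKM in myoblasts and 17.7 to 29.2 RPKM in the input (log2 fold change -1.33, adjusted p = 0.00663, and 0.0922 with libraries set to equal sums, where it was not called).

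Of the 4 ligand genes, 3 (myo, Actbeta and mav) lie on the small chromosome 4. All 3 had a negative log2 fold change, and 2 of them were called lower. Of the 73 genes of chromosome 4 that were tested, which include these 3 ligands, 19 were called lower (26.0%, against 14.8% of all genes tested). Another 3 of the 73 were called higher, against 5.52% of all genes tested. The median log2 fold change of the 73 genes was -0.28, against 0.01 for all genes tested. The value of myo, at -0.38, was near this median. Those of mav and Actbeta, at -1.41 and -2.87, were well below it.

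Genes with the most similar profile were looked up by Pearson correlation of log2(RPKM + 1) over the 6 libraries, which describes 6 points in 2 groups and is given without a p-value. For Actbeta the nearest were CG17211 (r = 0.9996), m, a gene of the zona pellucida domain family, and tutl, an immunoglobulin superfamily gene. For mav they were CG31221 (r = 0.997), GalNAc-T2 and blot, with log2 fold changes of -2.96, -1.32 and -1.94. For myo they were CG8866 (r = 0.990), CG43293 and bip1, each with its highest value in input replicate 1. For Smox they were CG11210 (r = 0.994), HPS1 and IntS14, for daw CG30467 (r = 0.979), CG17754 and Psn, and for babo CG8841 (r = 0.993), bbc and CG14435. None of the 18 genes belongs to the Activin or BMP lists.

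**Figure D5:**
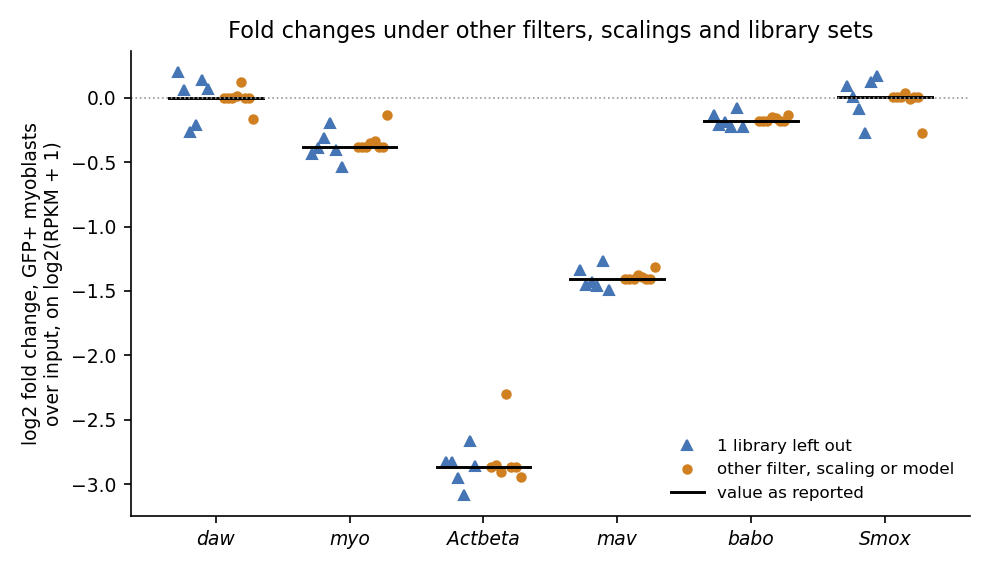
Log2 fold change (GFP+ myoblasts over input, log2(RPKM + 1)) of the 6 genes as reported (black lines), with 1 library left out (blue triangles) and with other filters, scalings or models on the same scale (orange points). Actbeta stays between -3.08 and -2.30 and mav between -1.49 and -1.27, whereas the points of daw and Smox fall on both sides of 0.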

How the data were processed

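The authors checked and trimmed reads (FastQC, Cutadapt), aligned them with HISAT2 2.1.0, counted them with HTSeq 0.11.2 on dm6, and deposited RPKM per gene, which the methods credit to Cufflinks. Median-of-ratios factors of the deposited RPKM, over 6955 genes above 0 in every library, were 1.018380 in all 6 libraries, so the values were already scaled between libraries in that way, and the total behind a library's RPKM is not its depth. Positions and exon lengths are from Ensembl release 115 (dm6 coordinates, 17216 genes matched). Reads were recovered from RPKM and exon length (within 0.05 reads for 97.4% to 98.6% of genes under 100 reads).

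limma 3.58.1 (R 4.3.3) was run on log2(RPKM + 1) of 7533 genes, with trend and Benjamini-Hochberg adjustment, instead of the study's DESeq2, since RPKM are not counts. The script was tested on simulated data. Exact permutation tests used 20 arrangements (scipy 1.17.1). Members and lists were chosen with earlier results of these data known. Named genes are the members, the lists, and the 3 nearest profiles per member. Alternatives were pseudocount, filter, scaling, replicate block, trend, weights, no adjustment of p, each library left out and, added after seeing the data, voom on recovered reads. The symbols CORL and fuss name the same gene, which was counted once, and ap was not matched by symbol. No sequences are shown.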

Additional observations from a re-analysis of the deposited data

How the results depend on the processing

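Actbeta and mav were called lower under every alternative in which they were tested, and babo, myo, daw and Smox were called under none, with p unadjusted included. Actbeta had a mean RPKM under 5 and was not tested with that filter. Median-of-ratios scaling could hardly change a result, since the deposited values were already scaled in that way, and it adds no support to the calls. With voom on recovered reads, an alternative chosen after seeing the data, its log2 fold change was -9.75 (adjusted p = 0.0447), and with a pseudocount of 0.1 it was -5.58, so its size, but not its direction, depends on how values near 0 are treated. Values near 0 changed sign for Smox, at -0.01 with quantile normalization, -0.27 with array quality weights and -0.013 with voom, and for daw, at 0.014 with equal sums and 0.12 with quantile normalization. The median over all genes tested was 0.01 on the deposited values and 0.16 after quantile normalization. The cause of these changes was not tested.

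With 1 library left out, log2 fold changes lay between -0.28 and 0.17 for Smox, -0.27 and 0.20 for daw, -0.54 and -0.20 for myo, -0.23 and -0.08 for babo, -1.49 and -1.27 for mav and -3.08 and -2.67 for Actbeta. The count of genes called over the whole table, 1534, lay between 903 and 2342 with 1 library left out, the highest without input replicate 1, and was 951, 918 and 903 without myoblast replicates 1, 2 and 3. It was 920 with a mean RPKM over 5, where fewer genes were tested, and 2482 with array quality weights (930 higher, 1552 lower), against 809 higher and 797 lower with quantile normalization, 180 higher and 924 lower with equal sums and 416 higher and 1118 lower as reported. The other Activin-branch list, with 2 calls, had 1 without a filter, with a mean RPKM over 5, with quantile normalization and with voom, 0 with equal sums, and 1 to 2 with 1 library left out. The BMP list had 2 calls with a mean RPKM over 5, where 7 of its genes were tested, and cv-2 was not called with voom (adjusted p = 0.0693).

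Libraries share replicate numbers, but the sources do not say that a number marks a pair, and the deviations of same-numbered libraries correlated at 0.345, 0.262 and 0.007. With the number as a replicate block, 1668 genes were called, and the adjusted p was 0.000803 for Actbeta and 0.00204 for mav. The log2 fold changes were the same as without the block by design, since each number covers a myoblast library and an input library. Only the p-values could change, so the equal log2 fold changes add no support to the results.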
